A study of Mus musculus with 12 samples.

Results

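RNA of wild-type mouse embryonic stem cells grown in LIF was compared with RNA of the same kind of cell grown in 2i+LIF, over all genes measured. The comparison rests on 6 of the 12 single-colour arrays of the study, the 3 arrays of wild-type cells in LIF and the 3 arrays of wild-type cells in 2i+LIF, taken by their sample labels. The other 6 arrays hold Nat1-null cells, 3 in LIF and 3 in 2i+LIF, and serve below as the comparison most like this one. All cells were an embryonic stem cell line kept in standard stem cell medium on gelatin, so that LIF was common to every group and 2i was the difference between media. Nat1 is read here as Eif4g2, also called DAP5, an eIF4G-like protein of translation initiation, and not the N-acetyltransferase gene that now bears the symbol. The labels name no strain, line, feeder layer or dose of the inhibitors, and whether a group's replicates were separate cultures is not stated either, so the p-values cover the spread among these samples, which may be technical. Slide 1 carries the wild-type LIF arrays, slide 2 the wild-type 2i+LIF arrays and slide 3 the Nat1-null arrays. Slide and medium therefore cannot be told apart in wild-type cells, whereas the change of medium in Nat1-null cells was measured within a slide.

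The cytokine LIF sustains self-renewal of mouse embryonic stem cells through the receptor gp130 and the transcription factor STAT3. The name 2i stands for a pair of kinase inhibitors, of MEK, which activates ERK downstream of FGF receptors, and of GSK3, which marks beta-catenin for destruction and so restrains Wnt target genes. Cells in 2i+LIF are known for a uniform naive state close to the preimplantation epiblast, and cells without the inhibitors for a mixture in which genes of later development are also transcribed.

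Each level below is the log2 signal of a probe minus the log2 signal at the array's 75th percentile, so that 0 marks that percentile, and n = 3 arrays per group throughout. A difference is the 2i+LIF mean minus the LIF mean, with the standard error (SE) from limma fitted to all 12 arrays. For each gene this fit shares 1 spread among the groups, although the spreads were unequal. Across genes, differences between replicates had SDs of 0.25 to 0.31 in wild-type groups and 0.48 to 0.58 in Nat1-null groups. A wild-type SE therefore also carries the spread of the Nat1-null arrays. A gene was called where its adjusted p was below 0.05 after Benjamini-Hochberg adjustment over all 24457 genes tested, and only called genes are said to have risen or fallen. Replicate arrays of the wild-type groups correlated at 0.996 to 0.997 across genes, and between 56.3% and 66.3% of 59305 gene-directed spots on each array were well above background. Between these groups the 75th percentile itself differed by -0.56 before scaling, and the 8 spike-in probes, whose RNA is added after extraction, differed by 0.36 after it (exact two-sided permutation p = 0.10, the smallest that 3 against 3 can give). The median of all genes was 0.06 as scaled, -0.30 with the spike-ins as scale and -0.50 with no scaling, so rises smaller than about that shift depend on the scale. Eif4g2, the gene lost in the Nat1-null cells, was at 4.46, 4.39 and 4.35 in wild-type LIF and at 4.13, 3.99 and 4.19 in wild-type 2i+LIF, and its means in Nat1-null cells were 1.19 ± 0.03 (SD) in LIF and 1.22 ± 0.10 in 2i+LIF.

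The labelled cell type was checked by summed signals of marker genes, in multiples of the 75th percentile. All 10 embryonic stem cell markers were well above background in both media, and their sum ranged from 494 to 506 in LIF and from 690 to 761 in 2i+LIF. The 8 smooth muscle or myofibroblast markers summed to 266 to 281 in LIF and to 6.62 to 7.27 in 2i+LIF, with 7 and 5 of them well above background. The 11 measured fibroblast or feeder markers summed to 55.6 to 66.7 in LIF and to 1.80 to 1.95 in 2i+LIF, with 9 and 5 well above background, and Lum and Fap, a collagen-binding proteoglycan and a fibroblast protease, were not well above background on any of the 6 arrays. The neural sum was 25.9 to 27.0 in LIF and 8.59 to 9.65 in 2i+LIF. Sums of primitive endoderm (12.9 to 14.7 against 17.0 to 18.1), trophoblast (16.3 to 18.2 against 19.7 to 21.8) and mesoderm markers (7.02 to 7.26 against 9.43 to 11.1) were higher in 2i+LIF as scaled. These rises and that of the stem cell sum are small enough to depend on the scale, as given above. Fewer primitive endoderm markers (8 in LIF and 6 in 2i+LIF) and trophoblast markers (5 and 3) were well above background in 2i+LIF. The mesoderm sum rests on 2 such markers in each medium, as Mesp1, Mixl1 and Msgn1 were not well above background on any of the 6 arrays. The 2 probes of the mesoderm marker Kdr differed in direction (-2.56 and 0.54). Sums of 2-cell markers (20.1 to 21.2 against 12.8 to 13.3) and of endothelial and blood markers (1.87 to 1.95 against 1.38 to 1.47) were lower. In these bulk samples, fewer cells of a type and less RNA per cell cannot be told apart, and the part of other cell types in the results below was not tested.

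A large share of the transcriptome differed between the wild-type groups, in which medium and slide cannot be told apart. Of 24457 genes tested, 15171 were called (62.0%), of which 8438 were higher (34.5% of all genes) and 6733 lower (27.5%) in 2i+LIF. Of the calls, 55.6% were thus higher, against 12.8% with no scaling between arrays and 23.4% with the spike-ins as scale. By at least 2-fold, 4690 genes changed (19.2%), of which 1736 rose (7.10%) and 2954 fell (12.1%). The 3 arrays of each medium did not overlap for 18669 genes (76.3%; 41.1% higher and 35.2% lower in 2i+LIF), so that separation of the groups was common and is no distinction of a single gene.

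Among genes named through RefSeq and well above background on all 6 arrays, the largest rise belonged to Cdx1, a caudal-type homeobox gene and Wnt target. It was at -1.84, -1.84 and -1.88 in LIF and at 4.12, 4.10 and 4.05 in 2i+LIF, a difference of 5.94 ± 0.18 (SE), or 61.5-fold (limma adjusted p = 1.0e-08). Ndufa4l2, a mitochondrial protein induced in low oxygen, came next with 5.14 ± 0.21. Kiss1, the precursor of the peptide kisspeptin, rose by 4.19 ± 0.21, Tfcp2l1 by 3.89 ± 0.08 and the homeobox gene Hoxc13 by 3.96 ± 0.06. The remaining members of the 10 largest rises were Gm13889 (4.65), the Hoxa11 antisense RNA Hoxa11os (4.03), Ndrg2 (3.84), the NMDA receptor subunit Grin2c (3.82) and Fam81a (3.70). The largest falls were led by contractile and matrix genes. Acta2, smooth muscle alpha-actin, was at 6.24, 6.12 and 6.26 in LIF and at -1.95, -1.65 and -1.98 in 2i+LIF, a difference of -8.07 ± 0.22 and a 268-fold fall (adjusted p = 5.6e-09). Col1a2 (-7.61), the secreted neuropeptide precursor Vgf (-7.47), the actin-binding protein calponin Cnn1 (-7.06), Acta1 (-6.86), Col1a1 (-6.72), the myosin light chain Myl9 (-6.16), Tgfb2 (-6.06), the keratin Krt18 (-5.90) and the zinc-finger factor Wt1 (-5.65) followed. H19, which the array's own identifier names and RefSeq accessions did not, was outside this ranking, and its fall, given below with the imprinted genes, was larger than that of Myl9. The 3 arrays of each medium did not overlap for any of these 20 genes, as the rule for naming them required.

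Other genes crossed the detection limit. Not well above background on any LIF array but above it on all 3 arrays in 2i+LIF were Hoxa10 (at least 15.8-fold higher), Hoxa11 (at least 8.96-fold), Hoxc11 (at least 8.04-fold), the homeobox gene Gsx2 (at least 6.49-fold), 6720483E21Rik (at least 5.73-fold) and Pglyrp1, which encodes a protein that binds bacterial cell walls (at least 7.54-fold). These bounds set the 2i+LIF mean against the lowest signal well above background on each LIF array. In the other direction, Thbs1, the matrix protein thrombospondin, was at least 199-fold lower, the interferon-induced GTPase Gbp2 at least 153-fold, the neural fatty-acid binding protein Fabp7 at least 89.1-fold, Gbp2b at least 83.1-fold, the matricellular gene Ccn4 at least 72.6-fold and the cytokine Il33 at least 44.4-fold.

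**Figure D1:**
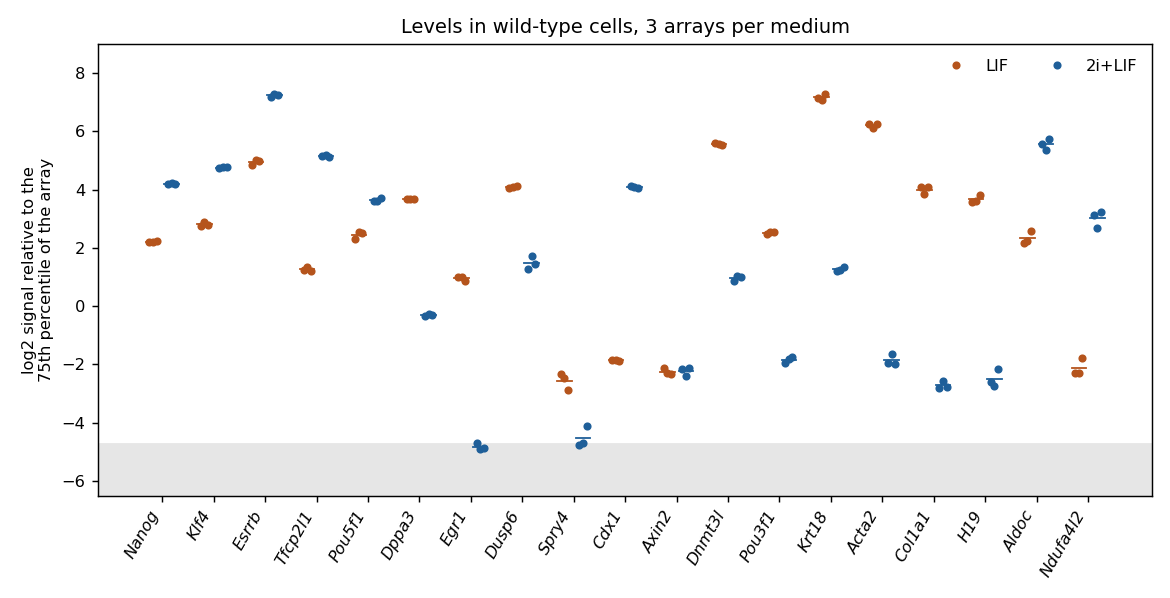
Levels of 19 genes on the 6 wild-type arrays, in log2 units above or below the array's 75th percentile (LIF orange, 2i+LIF blue, lines are group means; grey, below the highest of the lowest signals well above background). Axin2 overlaps between the media, whereas Nanog, Esrrb and Cdx1 lie higher and Egr1, Acta2 and Col1a1 lower in 2i+LIF on every array.

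The gene lists used below moved in different proportions. Against 34.5% of all genes higher and 27.5% lower, 24 of 25 glycolysis genes rose and 15 of 15 collagen chains fell, which are the shares at either end of the bar plot of lists. A gene was tested where it was well above background in at least 1 group, so a member below background in one medium can have entered through the medium in which it is high, and the counts and medians describe the lists. Where a printed median that is not close to 0 moved by over 1.5 times with the normexp background correction, or over the members well above background on all 12 arrays (called bright below), that value stands beside it.

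**Figure D2:**
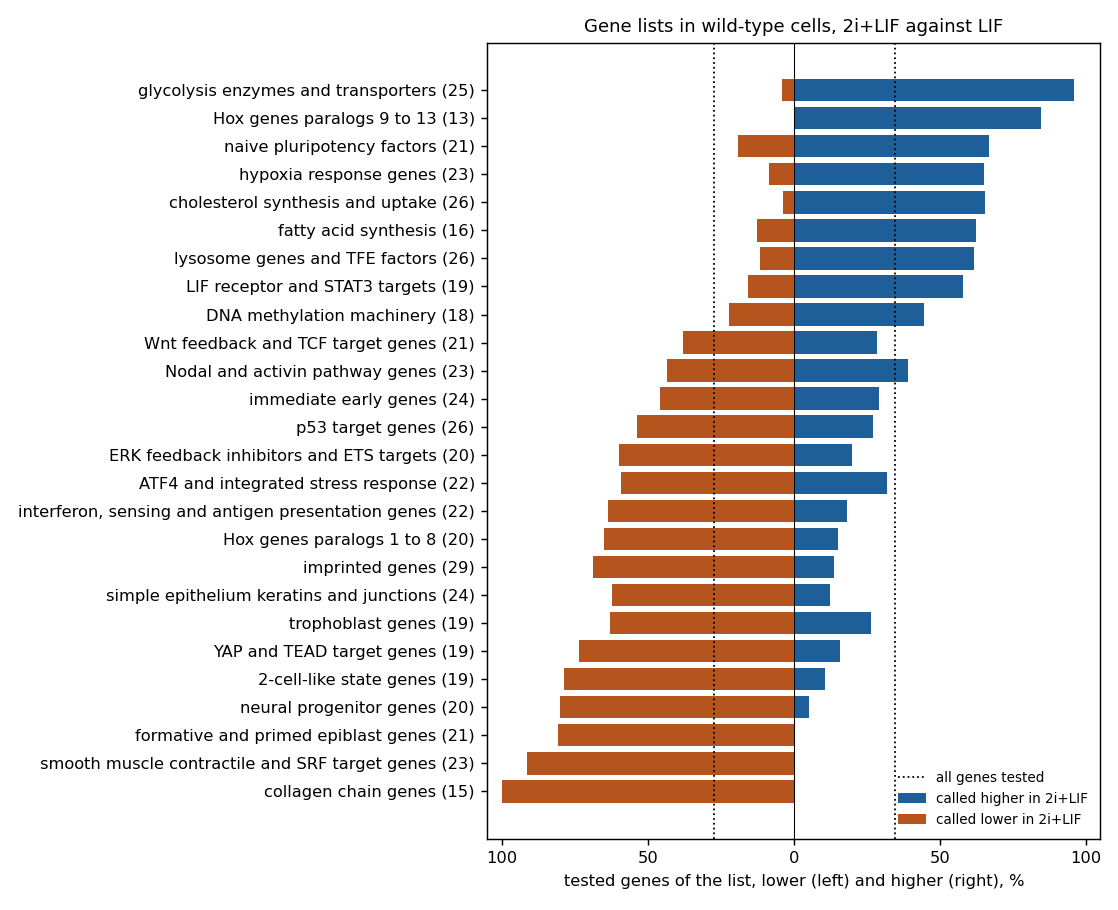
Share of the tested genes of 26 lists that were called higher (right, blue) or lower (left, orange) in wild-type cells in 2i+LIF, with the number tested in brackets and the shares over all genes as dotted lines (34.5% and 27.5%). With no scaling between arrays the medians of the cholesterol, fatty acid and lysosome lists turned from above to below 0, as did that of the DNA methylation list, which also turned with spike-in scaling; that of the Wnt target list, -0.05, turned with quantile normalization.

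Genes that specify naive pluripotency rose in most cases. Of 21 naive pluripotency factors tested, 14 rose, 11 of them by at least 2-fold, and 4 fell, with a median difference of 1.52 against 0.06 over all genes. Nanog, a homeobox factor of the naive state, was at 2.20, 2.21 and 2.25 in LIF and at 4.20, 4.22 and 4.19 in 2i+LIF, a difference of 1.99 ± 0.05 (adjusted p = 5.9e-09). Esrrb, an orphan nuclear receptor that Nanog and Wnt signals activate, went from 4.84, 5.02 and 4.98 to 7.19, 7.28 and 7.26 (2.29 ± 0.10, adjusted p = 6.9e-08). The Krüppel-like factor Klf4, a target of STAT3, went from 2.75, 2.89 and 2.80 to 4.73, 4.77 and 4.77 (1.94 ± 0.12), and the T-box factor Tbx3 from 2.09, 2.31 and 2.23 to 4.83, 4.82 and 4.76 (2.59 ± 0.11). For each of these genes every 2i+LIF array lay above every LIF array. Tfcp2l1, which links LIF to the naive network, had the largest rise of the list, from 1.25, 1.34 and 1.22 to 5.17, 5.18 and 5.13, or 14.8-fold. Prdm14, a regulator that represses FGF receptor signals and de novo methylation, rose by 1.97 ± 0.07, Klf2 by 1.60 ± 0.15 and Klf5 by 0.88 ± 0.16. Zfp42 (Rex1), a much used marker of the naive state, was already at 6.22, 6.15 and 6.30 in LIF and did not pass (0.05 ± 0.13 to levels of 6.15, 6.38 and 6.28, adjusted p = 0.75). Pecam1, an adhesion molecule of naive cells, did not pass either (-0.13 ± 0.08).

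The list was not of a piece. Dppa3 (Stella), a maternal factor that protects methylation in the zygote and varies from cell to cell in LIF cultures, was at 3.67, 3.68 and 3.69 in LIF and at -0.33, -0.28 and -0.31 in 2i+LIF. It fell by 3.99 ± 0.10 on the log2 scale, or 15.8-fold (adjusted p = 3.9e-09), and every LIF array lay above every 2i+LIF array. Gbx2, a homeobox target of STAT3, went from 2.36, 2.44 and 2.31 to 0.12, 0.29 and 0.10 (-2.20 ± 0.34). Genes of general pluripotency were mixed, with 3 of 18 rising and 9 falling (median -0.34). The core factors Pou5f1 (Oct4), from 2.32, 2.55 and 2.50 to 3.60, 3.60 and 3.72 (1.18 ± 0.10), and Sox2, from 2.64, 2.67 and 2.60 to 3.47, 3.45 and 3.41 (0.81 ± 0.07), rose, as did the Nodal co-receptor Tdgf1 (1.48 ± 0.09). The RNA-binding protein Lin28a (-2.35 ± 0.12), which blocks let-7 maturation, and the chromatin factor Utf1 (-1.33 ± 0.14) fell.

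Readouts of ERK activity fell unevenly. Egr1, an immediate early transcription factor under ERK control, was at 1.02, 1.00 and 0.88 in LIF and at -4.70, -4.90 and -4.88 in 2i+LIF (difference -5.79 ± 0.08, adjusted p = 1.7e-10). Only 2 of the 3 arrays in 2i+LIF measured it well above background, so its 55.4-fold fall depends on the background subtraction. Dusp6, a cytoplasmic ERK phosphatase that ERK induces, went from 4.06, 4.08 and 4.13 to 1.29, 1.73 and 1.46 (-2.60 ± 0.16), and the receptor-tyrosine-kinase inhibitor Spry4 from -2.31, -2.46 and -2.89 to -4.78, -4.68 and -4.10 (-1.97 ± 0.34). In all 3 genes the media did not overlap. Of 20 feedback inhibitors and ETS targets of the pathway, 12 fell, 9 by at least 2-fold, and 4 rose (median -0.54, and -0.35 over 18 bright members). The nuclear phosphatase Dusp4 fell by 3.25 ± 0.18 and the pleckstrin-like gene Phlda1 by 3.23 ± 0.10, while Spry2 fell by 0.63 ± 0.19, a call that was lost without LIF replicate 2 (-0.58, adjusted p = 0.053) or 2i+LIF replicate 1 (-0.57, adjusted p = 0.054). The ETS factors Etv4 and Etv5, standard ERK targets, went otherwise: Etv4 did not pass (0.07 ± 0.10), with levels of 2.98, 2.92 and 2.82 in LIF and 2.91, 3.05 and 2.99 in 2i+LIF, and Etv5 rose from 5.40, 5.54 and 5.52 to 6.28, 6.39 and 6.46 (0.89 ± 0.15).

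Immediate early genes, which many signals induce within minutes, had 11 of 24 lower and 7 higher. Their median of -0.77 was -0.12 with normexp and -0.05 over 18 bright members, of which 8 fell and 7 rose. Fosl2, an AP-1 subunit, went from 0.57, 0.46 and 0.62 to -4.75, -4.26 and -3.82 (-4.82 ± 0.26), and Myc from -0.07, -0.06 and -0.16 to -3.95, -3.33 and -3.89 (-3.63 ± 0.52, adjusted p = 1.9e-04). Fos itself (0.29 ± 0.26), Fosb (-0.12 ± 0.16) and Ier2 (0.02 ± 0.36) did not pass. In a limma fit to the 6 wild-type arrays alone Fos passed (0.29, adjusted p = 0.042). The antiproliferative gene Btg2 fell (-1.56 ± 0.08). The growth arrest gene Gadd45g, counted not here but in the LIF and STAT3 list below, fell too (-3.87 ± 0.32). Among the kinases and adaptors of the Ras and MAPK cascade themselves, 11 of 26 rose and 4 fell with a median of 0.11, which turned to -0.24 with spike-in scaling and -0.44 with no scaling. Map3k1 rose by 1.30 ± 0.08, and Map2k4, which activates JNK, fell by 1.32 ± 0.11. Of 14 FGF ligands and receptors 4 rose and 5 fell, and the receptor Fgfr1 fell by 0.26 ± 0.06.

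Wnt target genes, which inhibition of GSK3 is known to induce, did not move one way. Of 21 feedback and TCF target genes, 6 rose and 8 fell (median -0.05, and 0.08 with normexp), against 34.5% and 27.5% of all genes. Cdx1 had the largest rise, as given above. Sp5, a Sp1-family factor and direct beta-catenin target, went from -2.12, -2.19 and -2.13 to -0.77, -0.57 and -0.55 (1.52 ± 0.26, adjusted p = 6.0e-04), with no overlap. Axin2, the most general Wnt feedback gene, was at -2.11, -2.28 and -2.34 in LIF and at -2.17, -2.40 and -2.12 in 2i+LIF, with overlapping groups and a difference of 0.01 ± 0.21 (adjusted p = 0.96). Lef1, a TCF-family factor that is also a Wnt target, fell from 2.17, 2.19 and 2.24 to -0.08, -0.08 and -0.03 (-2.26 ± 0.25). Lgr5, a receptor for R-spondin, was at least 2.38-fold lower, and the ubiquitin ligase Znrf3, which removes Wnt receptors, did not pass (-0.01 ± 0.08). Of 25 pathway components 13 rose and 7 fell (median 0.26 as scaled, -0.10 with spike-in scaling and -0.30 unscaled). All 5 components that changed by at least 2-fold fell, among them the receptor Fzd2, from 3.43, 3.43 and 3.43 to 0.04, 0.08 and 0.20 (-3.33 ± 0.20), and the Wnt secretion factor Wls (-1.96 ± 0.41). Fzd3 (-0.03 ± 0.22) did not pass, and neither did the probe used for Fzd7 (0.01 ± 0.17), whereas the mean of the probes of Fzd7 was lower (-1.33, adjusted p = 5e-05).

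Both media contain LIF, yet genes of the LIF receptor and STAT3 pathway rose in 11 of 19 cases and fell in 3 (median 0.76). Socs3, the feedback inhibitor that STAT3 induces, was at 2.73, 3.23 and 3.00 in LIF and at 4.66, 4.63 and 4.68 in 2i+LIF (1.67 ± 0.12, adjusted p = 1.7e-06), with no overlap. Its relative Socs2 (-0.12 ± 0.14) did not pass. The largest fall of the list was that of Gadd45g (-3.87), as given above. In the Nodal and activin pathway, which primes the epiblast, 9 of 23 genes rose and 10 fell. Lefty1, a secreted Nodal antagonist and SMAD2 target, went from 4.81, 4.69 and 4.78 to 1.71, 1.99 and 2.24 (-2.78 ± 0.15), and Cfc1, a Nodal co-receptor, was at least 5.05-fold lower. Inhbb, an activin subunit, rose from 0.46, 0.37 and 0.37 to 3.21, 3.51 and 3.32 (2.95 ± 0.16), while Nodal itself (0.13 ± 0.10) and the receptor Tgfbr1 (-0.13 ± 0.11) did not pass. Ligand, antagonist and co-receptor of the same pathway thus moved in different directions. Of 17 BMP pathway and Id genes 5 rose and 6 fell. The BMP target Id3 fell (-2.91 ± 0.46), whereas Id1 (0.08 ± 0.17), the ligand Bmp4 (-0.07 ± 0.19) and the receptor Bmpr2 (-0.02 ± 0.19) did not pass.

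Genes of the formative and primed epiblast fell. Of 21 tested, 17 fell, 14 by at least 2-fold, and limma called none higher, nor was any higher at an unadjusted p below 0.05 (median -1.74). Pou3f1 (Oct6), a POU factor that appears as cells leave the naive state, was at 2.47, 2.55 and 2.56 in LIF and at -1.96, -1.81 and -1.73 in 2i+LIF (-4.36 ± 0.09, 20.5-fold, adjusted p = 3.0e-09). Otx2, its partner in that step, went from 3.91, 4.03 and 4.15 to 2.24, 2.32 and 2.32 (-1.74 ± 0.07). Fgf5, the classical marker of the epiblast after implantation, was well above background on the 3 LIF arrays (-1.73, -1.74 and -1.62) and on none in 2i+LIF, and was at least 10.6-fold lower. Every one of these genes was lower on each 2i+LIF array than on any LIF array.

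Lineage genes mostly followed. Of 20 neural progenitor genes 16 fell and 1 rose (median -1.26, -0.82 with normexp and -0.63 over 9 bright members). Fabp7 and the POU factor Pou3f2 (at least 8.77-fold lower) left the detectable range, and Crabp2, which carries retinoic acid, fell from 5.63, 5.58 and 5.67 to 1.36, 1.31 and 1.34 (-4.29 ± 0.11), while Sox1, an early neural marker, fell by 0.30 ± 0.08, a call that was lost with the mean of its probes (-0.14, adjusted p = 0.5). Of 18 retinoic acid pathway genes 10 fell and 2 rose, among them the retinol importer Stra6 (-3.34 ± 0.16) and the retinoic acid hydroxylase Cyp26b1 (-2.18 ± 0.16). Of 18 Notch genes 9 fell and 3 rose. The ligand Dll1 (-3.65 ± 0.36) fell and the receptor Notch4 rose (2.35 ± 0.09), while Notch1 (-0.04 ± 0.15) and Notch3 (0.08 ± 0.08) did not pass. Of 10 Hedgehog genes 5 rose and 2 fell. Its mediator Gli2 (2.58 ± 0.08) rose and the Gli3 repressor gene (-1.26 ± 0.09) and the antagonist Hhip (-1.88 ± 0.18) fell.

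Extraembryonic and mesendodermal lists were split. Of 19 trophoblast genes 12 fell and 5 rose (median -1.81, and -0.92 over 15 bright members), with Hand1, a basic helix-loop-helix factor of trophoblast giant cells, at least 16.7-fold and Plac1 at least 15.5-fold lower. Of 19 primitive endoderm and endoderm genes 7 rose and 9 fell, and of the 12 bright ones 7 rose and 4 fell. Gata6, the factor that opposes Nanog in the inner cell mass, rose from -2.11, -1.93 and -0.93 to -0.33, -0.62 and -0.45 (1.19 ± 0.35, adjusted p = 0.013), and LIF replicate 3 lay closest to the 2i+LIF values; without LIF replicate 1 the difference was 0.97, adjusted p = 0.053 and did not pass. The endocytic receptor Cubn (-1.95 ± 0.17) and its adaptor Dab2 (-2.94 ± 0.40, 2 of 3 arrays in 2i+LIF well above background) fell, and the growth factor receptor Pdgfra (0.12 ± 0.27) did not pass. Members that mark the same lineage thus lay on either side of 0. Of 18 streak and mesoderm genes 3 rose, among them the organiser gene Gsc (2.42 ± 0.12), and 5 fell, with a median of -0.15 (0.07 with normexp and -0.07 over 11 bright members).

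Genes of the contractile cytoskeleton and its transcription factor SRF fell together. Of 23 tested, 21 fell, 15 by at least 2-fold, and limma called none higher, also at an unadjusted p below 0.05. Their median of -2.73 was -1.66 with normexp and -1.54 over 18 bright members, and 3 were not well above background on any array in 2i+LIF. Beside Acta2, Tagln (SM22), an actin-binding protein, went from 7.17, 7.12 and 7.16 to 2.45, 2.59 and 2.62 (-4.59 ± 0.12), and Cnn1 from 4.38, 4.36 and 4.50 to -2.62, -2.51 and -2.83 (-7.06 ± 0.14). The striated muscle actins Acta1, from 3.84, 3.82 and 3.92 to -3.00, -2.94 and -3.06, and Actc1, from 4.39, 4.21 and 4.38 to -4.82, -4.76 and -4.88, fell as well (-6.86 ± 0.14 and -9.14 ± 0.76). Actc1 was well above background on 2 of the 3 arrays in 2i+LIF. In each of these 5 genes the media were separated by more than 4 log2 units. Tagln2, a relative of Tagln found in most cells, did not pass (0.16 ± 0.16), nor did the non-muscle myosin Myh9 (0.09 ± 0.09). Genes that YAP and TEAD factors regulate fell too, 14 of 19 with 3 rising (median -1.70): the matricellular genes Ccn2, from 4.74, 4.77 and 4.75 to 0.24, 0.29 and 0.31 (-4.48 ± 0.18), Ccn1 (-3.70 ± 0.16), and Ankrd1, which was well above background on 1 array in 2i+LIF, while Tead1 (0.04 ± 0.05) and Tead2 (0.03 ± 0.04) themselves did not pass.

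SRF binds the CArG box, and this motif lies within 250 bases before the start of 3 of the contractile genes with the largest falls. The promoters are shown 5′ to 3′ on the gene's strand, from 250 bases before to 50 bases after the annotated start (RefSeq, GRCm38.p6), with the CArG box in capitals; they are shown because their genes fell among the most and each holds the box. Actc1 is taken from chr2:114052826-114053125 on the minus strand, Acta1 from chr8:123894726-123895025 on the minus strand and Myl9 from chr2:156775214-156775513 on the plus strand.
Actc1: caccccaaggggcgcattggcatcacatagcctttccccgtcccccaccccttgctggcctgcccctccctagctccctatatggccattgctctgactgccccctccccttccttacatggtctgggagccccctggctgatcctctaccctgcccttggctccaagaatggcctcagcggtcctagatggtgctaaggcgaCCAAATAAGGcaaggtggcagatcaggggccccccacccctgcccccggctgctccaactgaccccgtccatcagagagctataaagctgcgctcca
Acta1: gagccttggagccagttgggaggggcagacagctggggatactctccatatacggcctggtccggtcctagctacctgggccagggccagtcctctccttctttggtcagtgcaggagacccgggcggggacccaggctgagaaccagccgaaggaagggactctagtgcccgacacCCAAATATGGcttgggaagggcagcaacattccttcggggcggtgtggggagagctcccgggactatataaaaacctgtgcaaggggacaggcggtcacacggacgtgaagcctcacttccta
Myl9: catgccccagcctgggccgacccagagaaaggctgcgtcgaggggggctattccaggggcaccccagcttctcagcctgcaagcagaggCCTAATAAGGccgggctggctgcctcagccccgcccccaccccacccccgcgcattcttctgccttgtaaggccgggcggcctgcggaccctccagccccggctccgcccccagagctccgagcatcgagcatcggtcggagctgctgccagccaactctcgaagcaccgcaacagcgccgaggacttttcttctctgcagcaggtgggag
The first base of the box lies 47, 73 and 161 bases before the start. Of 23 promoters matched to genes of the contractile list, 39.1% hold a CArG box on either strand, against 1.63% of all 32851 promoters of that length. The TEAD motif GGAATG stood in 62.5% of 16 promoters of the YAP list and in 34.8% of those of the contractile list, against 14.7% of all. Both lists were assembled in part from genes known as targets of SRF or of TEAD factors, so a high share of these motifs is built into them. A match is a description of the letters and not of binding.

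Matrix genes fell with the contractile genes. All 15 collagen chains tested fell, each by at least 2-fold. Their median of -2.46 was -1.43 with normexp, under which 12 of the 15 passed 2-fold, and -1.50 over the 7 bright chains, and 4 chains were not well above background on any array in 2i+LIF. Col1a1, a chain of fibrillar type I collagen, was at 4.08, 3.84 and 4.10 in LIF and at -2.81, -2.56 and -2.78 in 2i+LIF (-6.72 ± 0.15, 106-fold, adjusted p = 3.0e-09). Col5a2 (at least 11.3-fold) and Col6a1 (at least 10.3-fold) were not well above background on any array in 2i+LIF. The smallest falls were those of Col18a1 (-1.33 ± 0.12) and the basement membrane chain Col4a2 (-1.29 ± 0.15). Of 30 further matrix and integrin genes 17 fell and 8 rose. The laminin chain Lamb1 (-1.79 ± 0.11) and the integrin Itga3 (-3.82 ± 0.13) fell, and the laminins Lama3 (-0.16 ± 0.12) and Lamb2 (0.09 ± 0.07) did not pass. Of 19 fibroblast and feeder markers 13 fell, 2 rose and 4 did not pass, Thy1 among the last (-0.18 ± 0.28), and the proteoglycan Dcn was well above background on 3 arrays in LIF and on 1 in 2i+LIF. Beside these falls stand the summed fibroblast and smooth muscle marker signals given above, whose part in them was not tested.

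Epithelial genes were lower in most cases. Of 24 keratins and junction genes 15 fell, 12 by at least 2-fold, and 3 rose. Their median of -1.13 was -0.69 with normexp and -0.31 over 19 bright members, of which 10 fell. Krt18, a keratin of simple epithelia and early trophectoderm, was at 7.15, 7.07 and 7.28 in LIF and at 1.20, 1.26 and 1.35 in 2i+LIF (-5.90 ± 0.10), and its partner Krt8 at 3.75, 3.72 and 3.91 and -1.34, -1.38 and -1.46 (-5.19 ± 0.12). The desmosomal plakin Dsp did not pass (-0.01 ± 0.14). Regulators of epithelial-mesenchymal transition had 13 of 23 lower and 6 higher. Cdh2 (N-cadherin) fell by 3.01 ± 0.10 and the repressor Snai1 by 2.98 ± 0.18, whereas Snai2 (0.08 ± 0.15) did not pass. Keratins and mesenchymal genes, which mark opposite states in other cells, were thus lower in the same samples.

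Genes of DNA methylation did not move one way. Dnmt3l, the cofactor of de novo methylation, was at 5.59, 5.56 and 5.54 in LIF and at 0.85, 1.05 and 1.02 in 2i+LIF (-4.59 ± 0.17, 24.1-fold, adjusted p = 2.7e-08). The de novo enzyme Dnmt3b went from 5.70, 5.65 and 5.70 to 2.93, 3.31 and 3.09 (-2.57 ± 0.15), whereas Dnmt3a did not pass (-0.12 ± 0.17). The demethylating oxidases Tet1, from 3.97, 3.97 and 4.03 to 4.94, 5.06 and 5.02 (1.02 ± 0.11), and Tet2, from 2.10, 2.10 and 2.11 to 3.54, 3.68 and 3.62 (1.51 ± 0.17), rose. The 2 probes of Tet3, an oxidase of the same family named here after its values were seen, differed in direction (-0.84 and 0.46). Uhrf1, which recruits the maintenance enzyme to replicated DNA, rose from 5.33, 5.44 and 5.43 to 6.39, 6.43 and 6.39 (1.00 ± 0.08). Over the 18 genes of the list 8 rose and 4 fell, with a median of 0.13 as scaled and -0.22 with spike-in scaling. Germline genes whose promoters are known to be methylated in somatic cells had 12 of 24 lower and 6 higher (median -0.47, and -0.30 over 23 bright members). Dazl, an RNA-binding protein of germ cells, rose from 2.12, 2.18 and 2.12 to 2.93, 2.94 and 2.91 (0.78 ± 0.15), Tex101 fell by 1.37 ± 0.12 and the meiotic regulator Stra8 did not pass (-0.03 ± 0.27).

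Genes of the 2-cell-like state, a rare state of embryonic stem cell cultures, fell in 15 of 19 cases and rose in 2 (median -1.82). Zscan4c, a zinc-finger gene of telomere maintenance, was at 4.01, 3.89 and 3.99 in LIF and at 2.59, 2.69 and 2.57 in 2i+LIF (-1.35 ± 0.08). Near-identical copies of this gene family can share a probe's signal, so the value belongs to the family rather than to 1 copy. The leucine-rich repeat genes Pramel6 (-3.44 ± 0.40) and Pramel7 (-4.78 ± 0.29, 2 of 3 arrays in 2i+LIF well above background) fell more. Of 8 Rhox genes, a homeobox cluster on the X chromosome, 7 fell, or 4 without 2i+LIF replicate 1. Rhox6 went from 3.77, 3.78 and 3.93 to -0.62, -0.31 and -0.28 (-4.23 ± 0.21), Rhox9 from 4.42, 4.42 and 4.51 to 0.37, 0.73 and 0.62 (-3.88 ± 0.19), and Rhox13 did not pass (0.53 ± 0.34).

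Imprinted genes, expressed from 1 parental copy, fell in 20 of 29 cases and rose in 4 (median -1.31, and -0.79 over 20 bright members). H19, a maternally expressed noncoding RNA, was at 3.57, 3.62 and 3.81 in LIF and at -2.62, -2.73 and -2.15 in 2i+LIF (-6.17 ± 0.21, 71.8-fold, adjusted p = 2.1e-08). The paternally expressed Peg10 (-3.78 ± 0.09) and Nnat (-4.32 ± 0.10) and the maternally expressed growth inhibitor Cdkn1c (-3.85 ± 0.14) fell as well, so the falls took in genes of either parental origin. Ube3a, imprinted in neurons only, did not pass (-0.09 ± 0.07).

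Hox genes split along the clusters. These genes lie in 4 clusters and are numbered in the order in which they are used along the body axis. Of 13 tested genes of paralogs 9 to 13, 11 rose, 10 by at least 2-fold, and limma called none lower, also at an unadjusted p below 0.05 (median 2.01). Of these 13 genes, 6 were not well above background on any LIF array and so had to be higher elsewhere to be tested. With normexp the median was 0.97 and 6 genes passed 2-fold, and over the 4 bright genes, all of which rose, it was 2.38. Of 20 genes of paralogs 1 to 8, 13 fell and 3 rose (median -0.71, -0.39 with normexp and -0.41 over 8 bright members), and 6 were not well above background on any array in 2i+LIF. Hoxc13 was at -3.37, -3.43 and -3.42 in LIF and at 0.64, 0.55 and 0.48 in 2i+LIF (3.96 ± 0.06), and Hoxa10 at -6.16, -6.05 and -6.46, not well above background, and -1.41, -1.21 and -1.35. Hoxb2, a gene of the hindbrain, went from 1.07, 1.06 and 1.22 to -3.54, -3.86 and -3.65 (-4.80 ± 0.22). The anterior genes Hoxb1 (at least 7.24-fold), Hoxb3 (at least 6.37-fold) and Hoxb5 (at least 7.20-fold lower) left the detectable range. All 8 of the Hoxb genes numbered 1 to 8 fell, whereas of the other 12 anterior genes 3 rose and 5 fell; this split was chosen after the values were seen. Hoxa4 (-0.04 ± 0.15), Hoxa5 (0.13 ± 0.24) and Hoxd11 (0.54 ± 0.77, well above background on 1 LIF array) did not pass. In Nat1-null cells 10 of the same 13 posterior genes rose, while of the 20 anterior genes 7 rose and 1 fell.

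**Figure D3:**
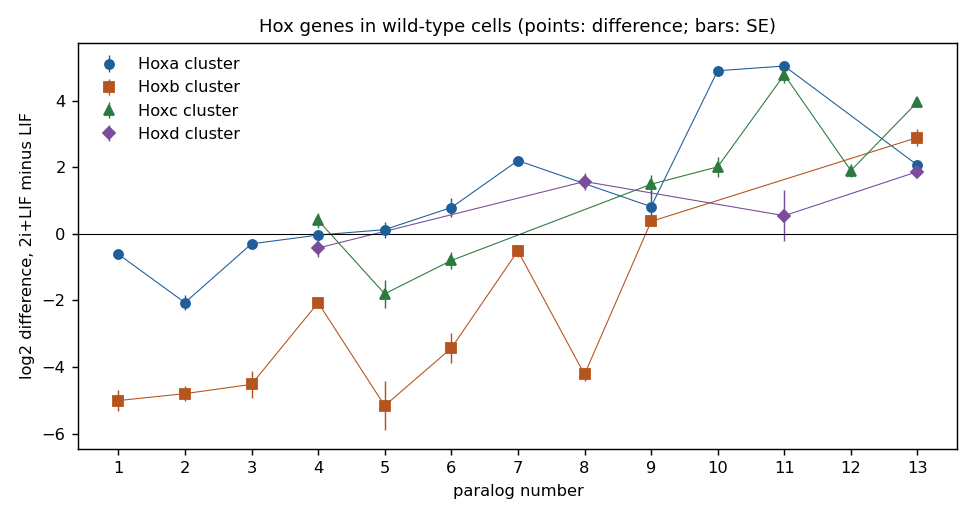
Log2 difference (2i+LIF minus LIF) of each tested Hox gene in wild-type cells by paralog number, with bars of 1 SE and colours for the 4 clusters. Genes numbered 10 to 13 lie above 0, Hoxd11 within its error, and the Hoxb genes numbered 1 to 8 lie below it; several of these values belong to genes near background in 1 medium.

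Genes of glycolysis rose almost throughout. Of 25 glycolysis enzymes and transporters 24 rose, 18 by at least 2-fold, and 1 fell (median 1.17); with no scaling 18 rose and 3 fell. Aldoc, an aldolase, was at 2.17, 2.23 and 2.59 in LIF and at 5.55, 5.36 and 5.75 in 2i+LIF (3.23 ± 0.21, 9.35-fold, adjusted p = 1.1e-06). The glucose transporter Slc2a3 rose from 5.63, 5.61 and 5.72 to 7.70, 7.76 and 7.95 (2.15 ± 0.11), hexokinase Hk2 from 2.75, 2.84 and 2.84 to 3.98, 3.88 and 4.09 (1.17 ± 0.07) and lactate dehydrogenase Ldha from 7.20, 7.19 and 7.42 to 8.55, 8.54 and 8.75 (1.35 ± 0.10). The lactate exporter Slc16a3 rose by 2.25 ± 0.16 and Ldhb by 2.18 ± 0.13. Entry, middle and exit of the pathway were therefore all higher, on every array of 2i+LIF. Genes that respond to low oxygen overlap with this list, and 15 of 23 rose with 2 falling (median 0.90), among them Ndufa4l2, from -2.30, -2.28 and -1.78 to 3.12, 2.70 and 3.25, the mitophagy receptor Bnip3 (2.63 ± 0.21) and the peptide hormone Adm (2.47 ± 0.17). The regulator Pfkfb4 (0.06 ± 0.08) and the collagen hydroxylase P4ha2 (0.04 ± 0.30) did not pass. The core letters of the hypoxia response element, ACGTG, stood in 62.5% of 24 promoters of this list. For the glycolysis list the share was 47.2% of 36 promoters, against 19.6% of all promoters and 24% of those of genes tested. The motif also forms part of the E-box CACGTG. In lists with more falls than rises its share varied, with 53.3% for the MYC network, 48.1% for initiation factors and 14.3% for collagen chains. A high share was thus not particular to lists that rose. The hypoxia list was chosen as genes that respond to low oxygen, so a high share of this motif may be built into it.

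Mitochondrial genes moved less, and their direction depends on the scale. Of 29 genes of the TCA cycle and pyruvate entry 16 rose and 3 fell (median 0.20), against 6 and 12 with spike-in scaling and 3 and 18 unscaled. The isocitrate dehydrogenase Idh2 (1.35 ± 0.06) rose by more than that shift, and malate dehydrogenase Mdh2 did not pass (-0.04 ± 0.07). Of 35 subunits of oxidative phosphorylation 28 rose with a median of 0.28, whereas 6 fell and 1 rose with spike-in scaling and 25 fell unscaled.

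Lipid genes rose in most cases. Of 26 genes of cholesterol synthesis and uptake 17 rose and 1 fell (median 0.54 as scaled, -0.02 unscaled), with Tm7sf2 (1.46 ± 0.07), Acat2 (1.32 ± 0.05) and Insig1, the sterol sensor (1.36 ± 0.18), in front. The synthase Hmgcs1 rose from 5.30, 5.32 and 5.44 to 6.03, 6.05 and 6.06 (0.69 ± 0.08). Of 16 fatty acid synthesis genes 10 rose and 2 fell (median 0.54 as scaled, -0.02 unscaled). Thrsp, a lipogenic regulator, went from -2.34, -2.16 and -2.41 to 1.40, 1.24 and 1.26 (3.60 ± 0.10) and the desaturase Scd1 from 0.46, 0.39 and 0.45 to 2.11, 1.81 and 2.08 (1.57 ± 0.16), while Acaca, the committed step of the pathway, did not pass (-0.05 ± 0.05). Of 26 lysosome genes 16 rose and 3 fell (median 0.48 as scaled, -0.08 unscaled), among them the lysosomal regulator Tfeb (1.26 ± 0.14). Of 20 serine, glycine and one-carbon genes 9 rose and 5 fell, against 5 and 10 with spike-in scaling. Tdh, threonine dehydrogenase, on which mouse embryonic stem cells depend, rose from 5.26, 5.27 and 5.33 to 7.33, 7.60 and 7.43 (2.16 ± 0.19), and its partner Gcat rose too (1.55 ± 0.07).

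Among amino acid stress genes more fell than rose. Of 22 ATF4 targets and genes of the integrated stress response, 13 fell and 7 rose (median -0.55). The glutathione-degrading enzyme Chac1 fell by 1.75 ± 0.08 and the factor Atf5 by 1.21 ± 0.08. The aminoacyl-tRNA synthetases Aars (-0.04 ± 0.05) and Gars (0.00 ± 0.06) did not pass. Of 21 solute and amino acid transporters 11 rose and 9 fell, with Slc7a7 (-2.70 ± 0.16) among the falls. The unfolded protein response had 8 of 22 higher and 7 lower, heat shock genes 6 of 16 higher and 5 lower, and NRF2 and glutathione genes 11 of 22 higher and 6 lower, and the medians of all 3 lists (0.03, 0.03 and 0.21) turned below 0 with spike-in scaling. The chaperone Hspa1a fell by 2.09 ± 0.22, and the NRF2 target Nqo1 rose by 1.33 ± 0.13.

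Translation genes moved by small steps. Of 47 cytosolic ribosomal proteins 37 rose and 1 fell with a median of 0.26, but 9 fell with spike-in scaling and 45 fell unscaled. Their direction thus depends on the scale. Their median lay above that of all genes as scaled (0.26 against 0.06), with spike-in scaling (-0.10 against -0.30) and unscaled (-0.30 against -0.50). With quantile normalization it lay below (-0.01 against 0.05). Ribosome biogenesis genes had 5 of 27 higher and 10 lower, led by Pes1 (-1.89 ± 0.26), and mitochondrial ribosomal proteins 8 of 36 higher and 15 lower. Of 26 initiation factors 9 fell and 6 rose, the latter count being 3 without LIF replicate 1 or 2 or without 2i+LIF replicate 2 or 3. Eif4a2, an RNA helicase of the cap complex, rose from 5.41, 5.45 and 5.49 to 6.81, 6.84 and 6.84 (1.38 ± 0.05), Eif5a fell by 1.29 ± 0.09 and Eif4g2 by 0.30 ± 0.07 (adjusted p = 0.0041).

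Growth control genes were mixed. Of 27 cell cycle genes and CDK inhibitors 15 rose and 5 fell (median 0.41 as scaled, -0.15 unscaled). Ccnd2, a G1 cyclin, fell from 1.61, 1.44 and 1.68 to -2.98, -3.10 and -3.15 (-4.65 ± 0.17), Ccnd1 by 0.46 ± 0.09 and the inhibitor Cdkn2b by 1.98 ± 0.23, while Cdkn2c rose by 1.25 ± 0.17 and the mitotic kinase Plk1 did not pass (0.05 ± 0.07). Of 26 p53 targets 14 fell and 7 rose. The death receptor Fas fell by 2.29 ± 0.22, and for Cdkn1a (p21) the probe used rose by 1.07 ± 0.07 whereas another probe of the gene fell, so it is left without a direction. In the MYC network 7 of 14 fell and 4 rose, and Mycn (-0.64 ± 0.12) and the antagonist Mxd4 (-1.93 ± 0.11) were among the falls. Of 31 Polycomb genes 9 rose and 7 fell, and of 24 histone demethylases and acetylation writers 16 rose and 2 fell (median 0.39 as scaled, -0.17 unscaled), with Kdm3b (1.21 ± 0.07) in front. Of 9 nuclear noncoding and snoRNA host RNAs 5 rose and 1 fell (median 0.51 as scaled, -0.05 unscaled), among them Snhg3 (1.45 ± 0.08).

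Innate immune genes were lower in most cases. Of 22 genes of interferon response, nucleic acid sensing and antigen presentation 14 fell, 10 by at least 2-fold, and 4 rose (median -0.70). Isg15, a ubiquitin-like protein induced by interferon, was at 0.38, 0.58 and 0.64 in LIF and at -1.71, -1.82 and -1.57 in 2i+LIF (-2.23 ± 0.09). The immunoproteasome subunit Psmb8 was at least 20.2-fold and the RNA sensor Ifih1 at least 4.65-fold lower, while Ifitm1, an interferon-induced membrane protein, did not pass (0.20 ± 0.16). Of 14 endothelial and blood markers 5 rose and 7 fell, with the von Willebrand factor gene Vwf higher (2.82 ± 0.10) and the VEGF receptor Flt1 lower (-2.64 ± 0.22). Of 6 Y-linked genes tested 3 fell, Ddx3y by 0.37 ± 0.06 on levels of 1.87, 1.85 and 1.86 and 1.49, 1.52 and 1.46, while Eif2s3y did not pass (-0.05 ± 0.13).

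Genes of chromosome 11 stood apart as a whole in wild-type cells. Over 1292 genes of that chromosome the median difference was -0.36 (-0.38 to -0.34 over the 9 pairs of a LIF and a 2i+LIF array), against 0.02 over 14116 genes elsewhere. On chromosome 11, 709 genes fell (54.9%) and 218 rose (16.9%), against 30.7% and 34.6% elsewhere. Among genes well above background on all 12 arrays the median was -0.29 on chromosome 11 (1091 genes, -0.32 to -0.26 over the pairs), while the medians of the other 19 chromosomes lay between 0.002 and 0.19. Cut into 12 consecutive stretches, the chromosome had a median below 0 in each, from -0.46 to -0.10, so the shift ran along its whole length. In Nat1-null cells the difference between media on chromosome 11 was 0.06. Nat1-null cells in LIF also lay lower than wild-type cells in LIF there (-0.18, against 0.10 elsewhere), whereas they lay close to wild-type cells in 2i+LIF (0.08, against -0.01 elsewhere), which leaves wild-type LIF as the group that stands apart. The pattern was looked for after the values were seen, and chromosome number was not tested.

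Several lists above hold genes of this chromosome. All 8 anterior Hoxb genes lie on it. Of 36 mitochondrial ribosomal proteins, the 6 on chromosome 11 all fell, while of the other 30, 8 rose and 9 fell. Of 47 cytosolic ribosomal proteins the single called fall was among the 4 on chromosome 11, and the 37 rises were among the other 43. Of 27 ribosome biogenesis genes, 3 of the 5 on chromosome 11 fell. Col1a1 lies on chromosome 11 as well, but Col1a2 lies on another chromosome and fell by 7.61 ± 0.11.

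**Figure D4:**
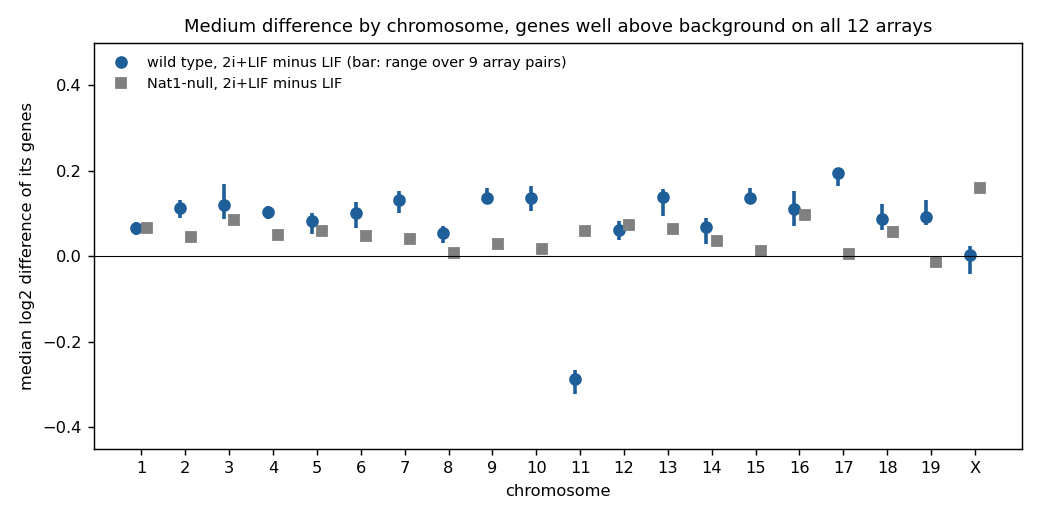
Median log2 difference (2i+LIF minus LIF) of the genes of each chromosome that were well above background on all 12 arrays, in wild-type cells (circles, bars give the range over the 9 array pairs) and in Nat1-null cells (squares). Chromosome 11 lies at -0.29 in wild-type cells and at 0.06 in Nat1-null cells, and the other wild-type medians lie between 0.002 and 0.19; with another scale all points of a genotype move together.

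The same change of medium was measured in Nat1-null cells on arrays that share none with the wild-type comparison. Replicates of the Nat1-null groups correlated at 0.988 to 0.991. The mean of the negative control spots lay outside the range set by Feature Extraction on Nat1-null LIF replicate 3 and on all 3 Nat1-null 2i+LIF arrays. On the wild-type arrays it lay within that range. In Nat1-null cells 8998 genes were called (36.8%), 5090 higher (20.8%) and 3908 lower (16.0%). By at least 2-fold 1955 changed (7.99%), 898 up (3.67%) and 1057 down (4.32%). Of the 1736 genes that rose by at least 2-fold in wild-type cells, 576 rose in Nat1-null cells (33.2%), 356 fell (20.5%) and 804 were not called (46.3%). The 200 that rose by at least 2-fold in both are 11.5% of the wild-type and 22.3% of the Nat1-null set. Of the 2954 genes that fell by at least 2-fold, 642 fell in Nat1-null cells (21.7%), 445 rose (15.1%) and 1867 were not called (63.2%), and the 339 that fell by at least 2-fold in both are 11.5% and 32.1% of the sets. Across all 24457 genes the differences in the 2 genotypes correlated at r = 0.054 (Spearman 0.097), as a description over genes that share probes and processing. A test of the difference itself called 12150 genes (49.7%), 6372 with the wild-type effect the higher (26.1%) and 5778 with it the lower (23.6%).

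For some signalling targets no difference between genotypes was called. Cdx1 rose by 5.41 in Nat1-null cells, and the interaction, the wild-type difference minus the Nat1-null difference, was 0.53 ± 0.26 (limma adjusted p = 0.12). For Spry4 (-1.95 in Nat1-null cells) and Lef1 (-2.53) the interaction was -0.02 ± 0.48 and 0.27 ± 0.35 and did not pass. Dusp6 fell in both (-1.84 in Nat1-null cells), by -0.76 ± 0.22 more in wild-type cells on the log2 scale. Of the 21 naive factors, 7 rose and 6 fell in Nat1-null cells. Nanog differed by 0.17, Esrrb by -0.21 and Klf4 by -0.19 between media there, with interactions of 1.82 ± 0.08, 2.51 ± 0.14 and 2.13 ± 0.17 (adjusted p = 1.5e-07, 6.4e-07 and 7.3e-06). Mean Esrrb was already at 7.31 in Nat1-null LIF and was at 7.10 in Nat1-null 2i+LIF. Its wild-type means were 4.95 in LIF and 7.24 in 2i+LIF, so for Esrrb the genotypes lay apart in LIF and close in 2i+LIF.

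Axin2 and Sp5, feedback and target genes of Wnt signalling, were raised more in Nat1-null cells. Axin2, not called in wild-type cells, rose by 3.01 in Nat1-null cells (interaction -2.99 ± 0.30, adjusted p = 3.1e-05), and Sp5 rose by 4.69 (interaction -3.18 ± 0.37, adjusted p = 7.4e-05). Of the 21 Wnt target genes 9 rose and 2 fell in Nat1-null cells, and the difference between genotypes was not tested for the list. Dppa3, Rhox6 and Rhox9 fell in wild-type cells and rose in Nat1-null cells by 2.91, 3.37 and 2.99. The interactions were -6.90 ± 0.14, -7.60 ± 0.30 and -6.86 ± 0.27. Mean Dppa3 was at 3.68 in wild-type LIF and -3.00 in Nat1-null LIF, and at -0.31 and -0.09 in 2i+LIF. Acta2 (1.26), Acta1 (0.64) and Krt18 (1.24) rose in Nat1-null cells, with interactions of -9.33 ± 0.31, -7.50 ± 0.20 and -7.14 ± 0.15, and these 6 genes had the lowest interaction values among genes named through RefSeq and well above background on all 12 arrays. Mean Acta2 was at 6.21 in wild-type LIF and -3.41 in Nat1-null LIF, and at -1.86 and -2.15 in 2i+LIF. For Dppa3 and Acta2 the genotypes thus lay far apart in LIF and close in 2i+LIF. Of 23 contractile genes, 10 rose and 3 fell in Nat1-null cells, of 24 keratin and junction genes 14 rose, of 19 trophoblast genes 12 rose and 1 fell, and of 19 2-cell genes 11 rose and 1 fell. At the other end, Ndufa4l2 (0.07 in Nat1-null cells, interaction 5.07 ± 0.29) did not pass there, and Grin2c (-1.13), the haematopoietic factor Tal1 (-3.65), Vax2os (-1.87), Gm9918 (-2.71) and the RNA polymerase III subunit Polr3gl (-1.64) fell in Nat1-null cells and rose in wild-type cells. Summed smooth muscle markers in Nat1-null cells were 6.88 to 8.57 in LIF, near the 6.62 to 7.27 of wild-type 2i+LIF and far below the 266 to 281 of wild-type LIF.

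**Figure D5:**
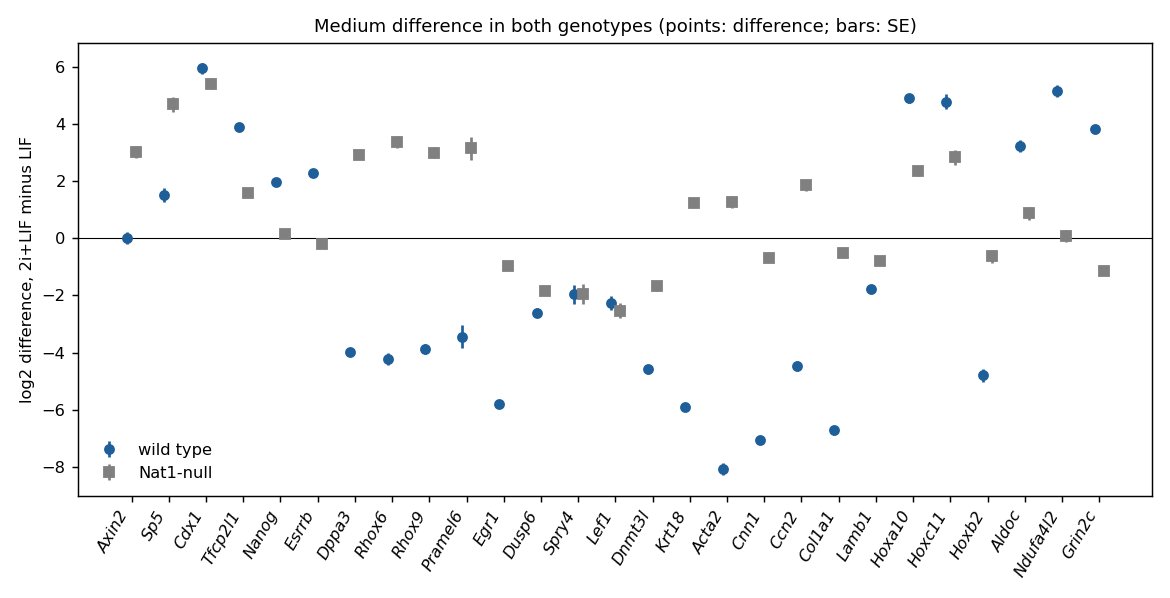
Log2 difference (2i+LIF minus LIF) of 27 genes in wild-type cells (circles) and Nat1-null cells (squares), with bars of 1 SE. Cdx1, Spry4 and Lef1 lie within 1 log2 unit of each other in the 2 genotypes, Axin2 is near 0 in wild-type and near 3 in Nat1-null cells, and Dppa3, Rhox6, Rhox9 and Acta2 lie on opposite sides of 0.

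Promoters of the changed genes were described by their letters. In the 300 bases around the annotated start, promoters of genes at least 2-fold lower held a median of 10 CpG dinucleotides (2167 promoters), those of genes at least 2-fold higher 16 (1126 promoters) and those of the other genes tested 19 (12136 promoters). The ETS motif CCGGAA stood in 12.6%, 13.9% and 26.2% of these promoters, and the AP-1 motif TGANTCA in 7.48%, 6.22% and 5.09%. The letters CCGGAA hold a CpG, so their share cannot be told apart from the CpG counts. It was low in genes that rose and in genes that fell. The CArG box stood in 2.12%, 1.42% and 1.36% and the TEAD motif in 15.6%, 12.0% and 12.3%. Not all motifs searched are given. Searches covered both strands, and a gene with several annotated starts counts once for each.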

How the data were processed

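Total RNA was hybridised to 12 single-colour (Cy3) arrays. Per the file headers, the deposited intensity values come from Agilent Feature Extraction 10.7.3.1. Its processed signal is corrected for background and for trends across an array, with no scaling from array to array. The values in the deposited series table are log2 and, set against the scanner values, with which they correlate at 1, proved to be the same signal with each array's 75th percentile at 0. The log2 values fitted here were recomputed from the deposited processed intensity minus the 75th percentile of each array, which fixes that percentile and lets all other differences depend on it. Control spots and outlier flags were left out and spots of a probe averaged. A value on every array was available for 54229 of 55681 probes, and the 33286 that were well above background throughout 1 or more groups were kept. The files carry no symbols; RefSeq accessions and a RefSeq table of GRCm38.p6 named 27656 probes. The probe with the highest mean stood for a gene, which left 24457 genes, 15422 with a symbol.

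limma 3.58.1 in R 4.3.3 fitted 4 group means, and its two-sided p-values were adjusted by Benjamini-Hochberg across the 24457 genes. A slide term could not be fitted in wild-type cells. An "at least" fold was given where no array of the lower group was well above background and 1 or more of the other group was. Each value of the lower group that lay below its array's lowest spot well above background was raised to that spot before averaging. On data simulated over 24457 genes, 73% of 100 changes of 1 and 95% of 100 changes of 2 on the log2 scale were recovered. All other genes were left unchanged and the noise was independent between arrays, with no slide effect. In the data 62.0% of genes were called, so these rates check the procedure and do not give the recovery in this comparison. The number of arrays limits the precision.

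The comparison and the 59 gene lists were chosen with earlier results of these data known. Named genes are a set panel, the largest changes above and across the detection limit, up to 4 called members with the largest and 2 with the smallest differences of each list, and the largest differences between genotypes. Of these, not all are described. Replicate numbers do not pair the arrays: residuals of same-numbered arrays correlated above 0.1 in 1 of 18 pairs (0.301) and between -0.035 and -0.0026 in those of the wild-type groups. Alternatives covered scaling, background correction, filters, probe choice, the deposited table, a replicate block, a fit to the 6 wild-type arrays alone and leaving out each array. Python 3.11.15 with numpy 2.4.6, matplotlib 3.10.9 and pandas 2.3.3 made the tables and plots.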

Additional observations from a re-analysis of the deposited data

Results flagged for a closer look

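Each result here is a gene whose response to 2i in wild-type cells differed from its response in Nat1-null cells by the interaction term of limma (adjusted p below 0.05), given as the wild-type difference minus the Nat1-null difference on the log2 scale. Among genes named through RefSeq and well above background on all 12 arrays, the lowest values belonged to the actins Acta2 (-9.33) and Acta1 (-7.50), the Rhox genes Rhox6 (-7.60) and Rhox9 (-6.86), the keratin Krt18 (-7.14) and Dppa3 (-6.90), all lower in 2i+LIF in wild-type cells and higher in Nat1-null cells. The Wnt targets Sp5 (-3.18) and Axin2 (-2.99) and the ERK phosphatase Dusp6 (-0.76) also had the lower value in wild-type cells. The naive factors Esrrb (2.51), Klf4 (2.13) and Nanog (1.82) had the higher one. In the same set, the highest values belonged to Ndufa4l2 (5.07), Grin2c (4.95), Tal1 (4.88), Vax2os (4.88), Gm9918 (4.79) and Polr3gl (4.49). An interaction can come from levels in LIF as well as from levels in 2i+LIF. For Acta1, Acta2, Dppa3 and Esrrb the genotypes lay closer to each other in 2i+LIF than in LIF. An interaction was called for 49.7% of all genes tested, so a call is common. The Nat1-null arrays lie on a slide of their own, and the part of slide in these differences cannot be told apart from genotype. Negative controls were out of range on all 3 Nat1-null 2i+LIF arrays, as given above.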

How the results depend on the processing

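The counts depend on the scale. With no scaling between arrays, 2239 genes were called higher and 15240 lower in wild-type cells in 2i+LIF (639 and 5794 by at least 2-fold), and the interaction called 2810 higher and 10268 lower. With the spike-ins as scale, chosen after seeing the data, 3436 were higher and 11266 lower, 902 rose by at least 2-fold, and the interaction called 3543 higher. The spike-ins themselves differed by 0.36 after scaling and by -0.20 before it. The counts by at least 2-fold also depend on dim probes and on the rule. With normexp background correction they were 1151 higher and 1460 lower in wild-type cells and 513 and 467 in Nat1-null cells. Over probes well above background on all 12 arrays, 1138 fell in wild-type cells and 580 rose and 574 fell in Nat1-null cells, and over probes bright on the 6 wild-type arrays, chosen after seeing the data, 1744 fell. A test against a minimum difference of 1 (treat) left 781 and 1476 genes in wild-type cells, 272 and 262 in Nat1-null cells and 787 and 1402 for the interaction. The cause of these moves was not tested beyond what each setting changes.

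Leaving out 1 array at a time gave 7608 to 8835 genes higher and 6038 to 7204 lower in wild-type cells (1669 to 1740 and 2816 to 2985 by at least 2-fold), 789 to 1118 and 969 to 1174 by at least 2-fold in Nat1-null cells, and 5751 to 6864 and 5167 to 6072 for the interaction. With the replicate number as a block, wild-type counts were 8400 higher and 6737 lower (1733 and 2961 by at least 2-fold), and the block changed the call of no gene described.

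Of 214 genes described with values, 170 were called. With the mean of all probes of a gene Cdkn1a reversed, to -0.42, the call of Sox1 was lost and Fzd7, Lama3 and Tead2 passed. In a fit to the 6 wild-type arrays alone no call was lost and 5 more genes passed (Fos, Ifitm1, Rhox13, Socs2 and Thy1). That fit called 9388 genes higher and 8012 lower. Without scaling, 5 calls were lost (Dazl, Etv5, Gata6, Klf5 and Hmgcs1) and 34 genes that did not pass were called, and with spike-in scaling 2 were lost (Dazl and Gata6) and 20 gained. The shift of chromosome 11 against the other chromosomes, -0.38, ranged from -0.40 to -0.34 over all settings, those that leave out an array included. Genes not well above background in a group have only a bound there.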
